A study of Caenorhabditis elegans with 4 samples.

Results

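A set of 1032 weaker binding regions of the homeodomain protein CEH-39 was found in both chromatin immunoprecipitation (ChIP-seq) replicates from Caenorhabditis elegans embryos but lay outside the combined list of 2515 regions that the authors deposited. Each is a replicate 2 region whose centre lies within 200 bp of the centre of a replicate 1 region. Both regions of the pair ranked within the best 10000 of their own list by the authors' score, and the replicate 2 region overlapped no combined region by as much as 1 bp. These replicated outside regions made up 1032 of the 19048 regions in the replicate 2 list. They were 1032 of the 7794 regions in its best 10000 that lay outside the combined list. They were chosen by their ranks, by the distance between centres and by overlap with the combined list, so those values are given below as a description without a test.

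CEH-39 belongs to the ONECUT class of homeodomain transcription factors. It is known as an X signal element, one of the X-encoded factors by which the early embryo senses its number of X chromosomes, and it acts by repressing the sex-determination switch gene xol-1. ChIP-seq peak lists usually hold few strong and many weak regions. The irreproducible discovery rate named in these files is a method that keeps regions ranked consistently well in replicate lists. Autosomes of C. elegans differ along their length: the central part carries most conserved genes and recombines little, while the arms hold more repeats and recombine more.

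The animals were of strain OP169, which was made by bombarding unc119(ed3) worms with wgIs169, a transgene of ceh-39 fused to TY1, EGFP and FLAG that also carries unc119. The recovered protein is therefore a tagged transgene product. All 4 libraries came from embryos of a mixed male and hermaphrodite population, raised at 20 degrees Celsius and fixed in 2% formaldehyde. They comprised 2 ChIP libraries recovered with anti-GFP antibodies and 2 input libraries, which were not analysed here, and the labels name no untagged control. The replicate 1 list held 30000 regions, of which 29978 were nuclear, and the authors' score has no stated unit and its own scale in each list. Read depth was unknown, and whether the replicates were separate cultures is not in the labels.

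The centres of the 2 replicates lay close together in the replicated outside regions, but less close than inside the combined list. The distance between centres ran from 0 to 200 bp with a median of 80 bp. Of the 1032 regions, 369 had their replicate 1 partner within 50 bp, 249 at 50 to 100 bp, 223 at 100 to 150 bp and 191 at 150 to 200 bp. The count therefore fell with distance, and it fell more steeply inside the combined list. Among the 1931 combined-overlapping replicate 2 regions that met the same pairing rule, the median distance was 45 bp, and 53.5% (95% Wilson interval 51.3 to 55.8%) lay within 50 bp against 35.8% (32.9 to 38.7%) of the outside regions.

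Beyond the 200 bp limit the count of outside regions went on falling and then stayed level. It was 150 at 200 to 250 bp and 154 at 250 to 300 bp, and from 500 to 1000 bp it was 63 to 105 per 50 bp with a mean of 88.1. For combined-overlapping regions of any replicate 2 rank it reached 0 at 550 to 600 bp. The 191 regions at 150 to 200 bp and the 369 within 50 bp both exceeded the highest of these level counts for outside regions. The rule used this distance, so the counts are a description. Unrelated neighbours at a level like the mean of 88.1 per 50 bp could also lie within the 200 bp limit. Their share of the pairs was not tested, and the rule cannot tell them from regions bound in both replicates. The partner lay at the lower coordinate in 505 cases, at the higher coordinate in 524 and at the same centre in 3, so neither side prevailed.

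**Figure D1:**
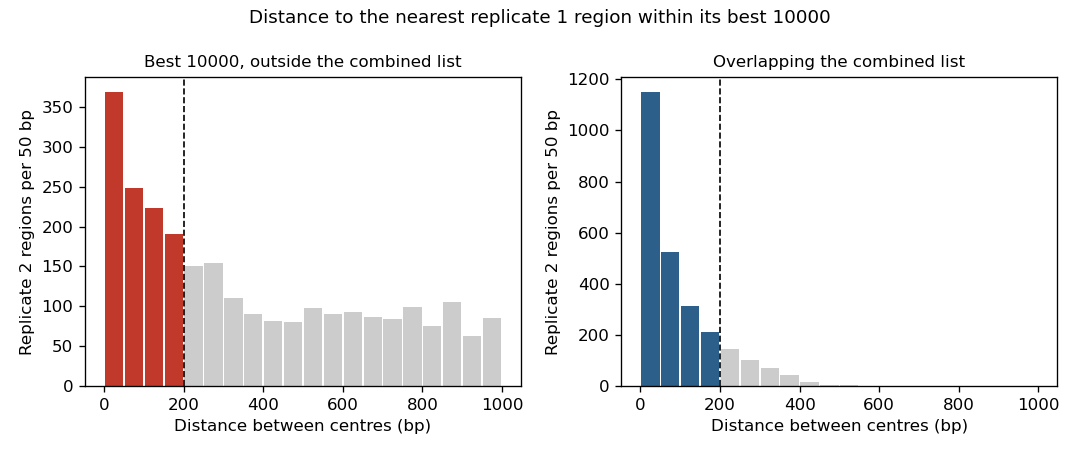
Number of replicate 2 regions per 50 bp of distance (bp) between their centre and the nearest replicate 1 centre within its best 10000. The left panel holds regions of the best 10000 of replicate 2 outside the combined list, and the right panel regions of any rank overlapping it. Coloured bars lie within the 200 bp limit (dashed line), grey bars beyond it. Outside the list the bars fall from 369 to a level of 63 to 105 beyond 500 bp, and inside it they fall from 1151 to 0.

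In the best 10000 of replicate 2, 29.6% of all regions had a replicate 1 partner by the pairing rule, against 1032 of the 7794 outside regions. Beyond the best 1000 the share of outside regions with a partner fell with rank. It was 4 of 35 at replicate 2 ranks 1 to 500 (11.4%, 95% Wilson interval 4.54 to 26.0%) and 39 of 153 in the next 500 ranks (25.5%, 19.2 to 32.9%). It then fell to 17.7% (15.5 to 20.3%) above rank 1000 and up to 2500, 14.4% (12.9 to 15.9%) at ranks 2501 to 5000 and 11.4% (10.5 to 12.3%) at ranks 5001 to 10000.

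The replicated outside regions spread over most of the ranks that the rule allows, with fewer at the best ranks. The lists differ in length, so a rank stands for a smaller share of the 29978 nuclear regions of replicate 1 than of the 19048 of replicate 2. Their replicate 2 rank had a median of 5028 (range 181 to 10000), and their partner's rank in replicate 1 had a median of 5795 (range 285 to 9996). The best 5% of them ended at rank 1085 in replicate 2 but at rank 2817 in replicate 1. In the paired combined-overlapping regions the medians were 1476 and 1299. The authors' replicate 2 score of the outside regions ran from 0.0221 to 1.97, with a median of 0.0933 against 0.411 in the paired combined-overlapping regions. Across the 1032 pairs Spearman's rho between the ranks in the 2 replicates was -0.048, and across the 1931 pairs inside the combined list it was 0.285. These values run across regions whose ranks the rule cuts off at 10000, and so only describe the pairs.

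**Figure D2:**
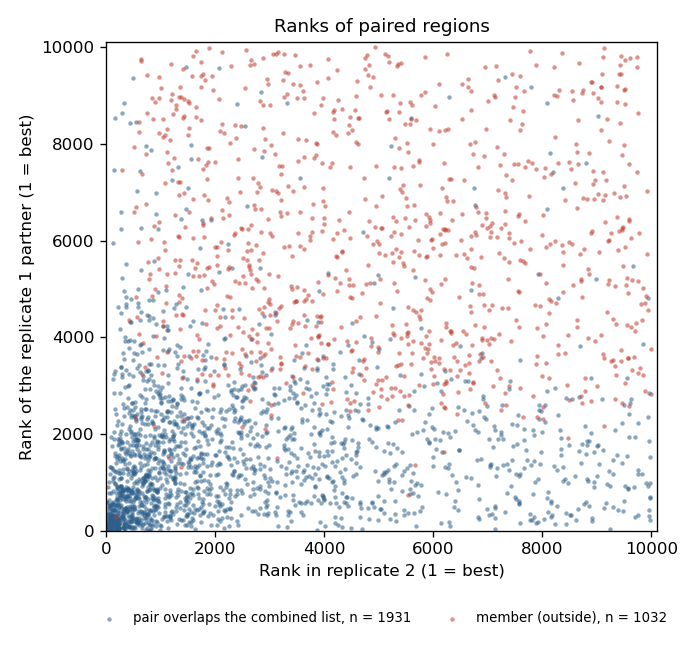
Rank in replicate 2 (x axis) against the rank of the replicate 1 partner (y axis) for every pair, where 1 is the best. Replicated outside regions (red, 1032) lie mostly above replicate 1 rank 2500 and spread over replicate 2 ranks up to the limit of 10000, and combined-overlapping regions (blue, 1931) lie mostly below it.

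The share of pairs outside the combined list rose with the rank number in each replicate. Of the 1551 pairs with a replicate 1 rank of 1 to 2500, 23 lay outside (1.48%, 95% Wilson interval 0.990 to 2.22%). The share was 52.9% (49.2 to 56.6%) of 705 pairs at replicate 1 ranks 2501 to 5000 and 89.96% (87.5 to 92.0%) of 707 pairs at ranks 5001 to 10000. By replicate 2 rank the same 3 bands gave 14.8% (13.0 to 16.7%), 44.9% (41.2 to 48.7%) and 61.4% (58.0 to 64.6%). Equal bands cover different shares of the 2 lists, and the rule used these ranks, so the values are a description and not a comparison of the replicates. With both ranks within 1000, 1 of 438 pairs lay outside the combined list. Where the worse of the 2 ranks was above 1000 and up to 2500, 6 of 574 did, and where it was 7501 to 10000, 441 of 623 did. The making of the combined list is not described in the sources used.

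**Figure D3:**
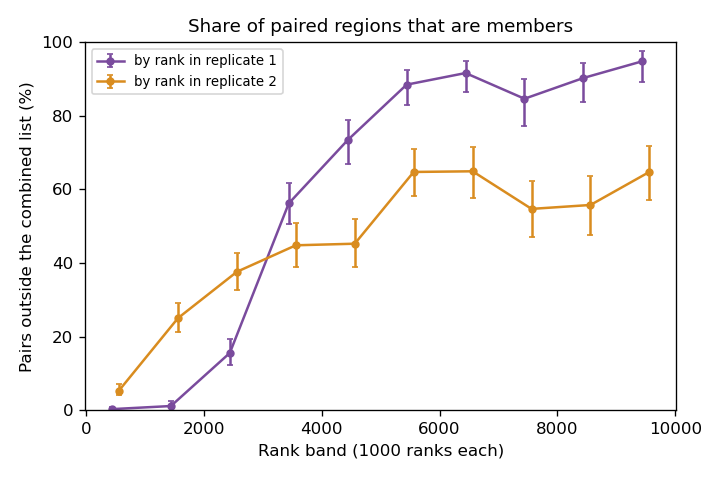
Percent of paired regions that lie outside the combined list, per band of 1000 ranks in replicate 1 (purple) or replicate 2 (orange), with 95% Wilson intervals. By replicate 1 rank the share goes from 0.255% in the first band to 94.9% in the last, and by replicate 2 rank from 5.32% to 64.8%.

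One region on chromosome II stood apart at the strong end, at 11238939 to 11239354 (WS220, the build of all positions here). Its rank was 181 in replicate 2, and its partner, at 11239004 to 11239197, had rank 285 in replicate 1, with centres 46 bp apart. The nearest combined region lay 15029 bp away by centre, at 11223886 to 11224349. The partner is 194 bp wide, and it was the 1 partner of the 1032 narrower than the usual 460 bp of replicate 1. Inside the combined list, 340 of the 1931 paired regions had a partner narrower than that.

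No other outside region had both ranks within 1000. The next by its worse rank lay on chromosome V at 11896350 to 11896765, at rank 1368 in replicate 2 and 1322 in replicate 1, and 36896 bp from the nearest combined centre. The third lay on chromosome II at 5181233 to 5181648, at ranks 1156 and 1500. Its partner's centre was 199 bp away, at the edge of the rule.

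Chromosome III carried the next pair, each near a combined region. The stronger, at 5602064 to 5602479, had rank 875 in replicate 2 and rank 2166 in replicate 1, and its centre was 1507 bp from that of the combined region at 5603547 to 5604010, of combined rank 279. The other, at 7358749 to 7359164, ranked 1424 and 2322 and lay 1436 bp from a combined centre. The highest on chromosome I, at 3930151 to 3930566, ranked 520 and 2335 and lay 21881 bp from the nearest combined centre.

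The remaining 4 of the 10 strongest had ranks between 2112 and 2909 in both replicates. They lay on chromosome II at 6355441 to 6355856, on III at 10633997 to 10634412, on X at 13514172 to 13514587 and on I at 9168613 to 9169028. The X-linked region was the strongest on X, with ranks 2908 and 2112. Chromosome IV had none among the 10, and its strongest lay at 11364254 to 11364669, at ranks 1671 and 3131. Of the 10, 8 lay in the central 50% of their chromosome, and their distance to the nearest combined centre ran from 1436 to 46450 bp. In the best 10000 of replicate 2, 56.6% of autosomal regions and 50.4% of those on X were central. The 10 are too few to be set apart from these shares, and no test was made.

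By replicate 2 rank alone, 4 outside regions came within the best 500, and apart from the chromosome II region the other 3 were X-linked (chosen after their values were seen). They lay at 17479739 to 17480154, 12188758 to 12189173 and 5476507 to 5476922. Their replicate 2 ranks were 294, 410 and 498, and their replicate 1 ranks were 7460, 4367 and 7947. These 3 regions thus ranked much better in the replicate 2 list than in the longer replicate 1 list.

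At its limits the rule separated regions by small steps in distance, rank or overlap, but not always regions of like rank. The 2 members nearest to the distance limit had centres 200 bp apart, and the 2 regions just past it had centres 201 and 203 bp apart. Their replicate 2 ranks were 1779 and 4940 inside and 9970 and 1526 outside. Replicate 2 ranks 9987 and 10000 were the last inside and 10002 and 10018 the first outside, with scores of 0.0222 and 0.0221 against 0.0221 and 0.0220. In replicate 1 the last ranks inside were 9990 and 9996 and the first outside were 10012 and 10014. The members closest to a combined region, on X at 1447022 to 1447437 and on V at 8197 to 8612, were separated from it by 20 and 52 bp and had replicate 2 ranks of 3029 and 4777. The paired regions with the least overlap shared 12 bp on X at 11605515 to 11605930 and 30 bp on II at 7105221 to 7105636, and these had replicate 2 ranks of 39 and 1560.

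All 1032 regions had the usual 416 bp width of replicate 2. They were supplied by 1010 different replicate 1 partners, because 44 of them shared a partner with another member. In 3 cases the partner overlapped a combined region although the replicate 2 region did not. Joined where they overlapped, the 1032 regions formed 1005 loci.

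The replicated outside regions were densest on chromosomes I and III and sparsest on V, as were the combined-overlapping regions and all replicate 2 regions. Chromosome I carried 213 of them (14.2 per Mb), III 186 (13.5), II 190 (12.4), IV 170 (9.72), X 153 (8.64) and V 120 (5.74). The combined-overlapping regions numbered 36.3 per Mb on I, 35.7 on III and 14.6 on V. For all replicate 2 regions the values were 221 per Mb on I, 222 on III and 146 on V. Among all replicate 2 regions 18.5% lay on X, against 14.8% of the outside regions (95% Wilson interval 12.8 to 17.1%). The 2601 combined-overlapping regions, here and below, had no rank limit, and 2206 of them lay in the best 10000 of replicate 2. Their X share was 17.0% (15.6 to 18.5%), and the difference of -2.21 percentage points did not pass Fisher's exact test (two-sided, p = 0.112, also 0.112 after Benjamini-Hochberg adjustment over 5 tests). It passed for the 980 outside regions at least 1000 bp from every combined centre (-2.75 points, Fisher's exact test, p = 0.0478). This and the following Fisher tests take regions as independent, although they are not replicates, and they measure variation along the genome and not between libraries.

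Compared with the other 6762 outside regions in the best 10000 of replicate 2, which had no replicate 1 partner, fewer lay on X. The unpaired regions were on X in 19.8% of cases (18.8 to 20.7%), and the difference of -4.93 points passed (Fisher's exact test, two-sided, p = 0.000129, adjusted 0.000161). It did not pass with centres within 100 bp (-3.00 points, Fisher's exact test, p = 0.0699) or with a rank limit of 5000 (-3.42 points, p = 0.250). The direction rests on the list that supplies the regions. Taken from replicate 1 by the mirrored rule, the 1031 paired outside regions were on X in 14.9% of cases and the 6073 unpaired ones in 13.2%, a difference of 1.75 points that did not pass (Fisher's exact test, p = 0.138). The X shares of the paired regions lay between those of the unpaired regions of the 2 replicates. Among nuclear regions in the best 10000 the X share was 18.7% in replicate 2 and 14.6% in replicate 1. Pairing needs a region in both lists, so a share between those of the 2 lists can follow from the rule alone. Tests of chromosome or position against unpaired regions cannot separate this from a trait of the paired regions.

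Chromosome V was also under-represented against the unpaired replicate 2 regions, at 11.6% against 16.1% (Fisher's exact test, p = 0.000179, adjusted over 12 chromosome tests 0.00107). Chromosome I was over-represented, at 20.6% against 16.9% (Fisher's exact test, p = 0.00414, adjusted 0.0166). Among all replicate 2 regions 16.0% lay on V and 17.4% on I. Among nuclear regions in the best 10000 of replicate 1 the shares were 13.2% on V and 19.9% on I. For these 2 chromosomes the mirrored rule was not tested. Against the combined-overlapping regions none of the 6 chromosomes passed after adjustment. The lowest p was that of chromosome II (18.4% against 15.8%, Fisher's exact test, p = 0.0535, adjusted 0.128).

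Along the autosomes the replicated outside regions were less central than the combined-overlapping regions. Of the 879 autosomal ones, 431 lay in the middle 50% of their chromosome (49.0%, 95% Wilson interval 45.7 to 52.3%), and 54.3% of all autosomal replicate 2 regions did. The share was 58.3% (56.2 to 60.4%) in the combined-overlapping regions, a difference of -9.31 points (Fisher's exact test, two-sided, p = 3.55e-06, adjusted 1.62e-05). On chromosome I the shares were 47.4% and 55.7%, on II 48.4% and 54.9%, on III 50.5% and 59.6%, on IV 48.2% and 61.5%, and on V 51.7% and 61.6%. The outside regions were less central on each of the 5 autosomes. On X, with 153 outside regions, the shares were 47.1% (39.3 to 54.9%) and 47.6% (43.0 to 52.3%).

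Both ends of the autosomes took part. The outer part at the lower coordinates held 24.8% (22.1 to 27.8%) of the outside regions and 20.2% (18.6 to 21.9%) of the combined-overlapping ones, and that at the upper coordinates held 26.2% (23.4 to 29.2%) and 21.5% (19.8 to 23.2%). In 10 equal parts the combined-overlapping regions were densest in part 5, with 13.0%, and sparsest in part 9, with 7.83%. The outside regions showed no such central maximum. Their shares ran from 7.74% in part 9 to 12.5% in part 8.

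The unpaired outside regions of the 2 replicates lay on opposite sides of this value. In replicate 2 the central share of unpaired autosomal regions was 57.2% (55.8 to 58.5%), and the difference of the paired regions from it was -8.14 points (Fisher's exact test, two-sided, p = 7.67e-06, adjusted 1.62e-05). In replicate 1 it was 40.5% (39.2 to 41.8%), below the 48.5% (45.2 to 51.8%) of the paired regions taken from that list (difference of 7.98 points, Fisher's exact test, p = 1.05e-05). The paired outside regions were therefore intermediate between the unpaired outside regions of the 2 replicates, on each of the 5 autosomes. In the best 10000 the autosomal central share was 56.6% in replicate 2 and 45.9% in replicate 1. As for X, an intermediate share can follow from the pairing rule, and these 2 tests cannot separate it from a trait of the paired regions. Unpaired means without a partner by the pairing rule, so such a region can still overlap a region of the other replicate. With pairing by overlap the paired outside regions of replicate 2 numbered 1604. Against the combined list the mirrored rule gave the same direction, with 48.5% against 56.5% (Fisher's exact test, p = 3.92e-05).

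**Figure D4:**
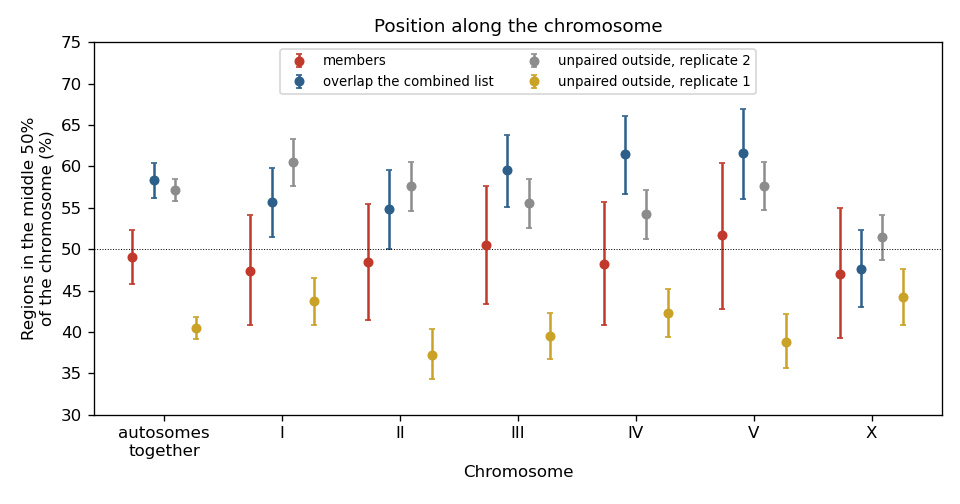
Percent of regions in the middle 50% of their chromosome, with 95% Wilson intervals, for the replicated outside regions (red), combined-overlapping regions (blue) and the unpaired outside regions of replicate 2 (grey) and replicate 1 (yellow). On the autosomes together the values are 49.0%, 58.3%, 57.2% and 40.5%, and the red point lies below the blue and grey ones and above the yellow one on each autosome.

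The lower central share was seen with a limit on the replicate 2 rank alone, but not with a limit of rank 5000 in both lists. At replicate 2 ranks above 1000 and up to 5000, with no further limit on replicate 1, 50.1% of the outside regions were central, against 59.1% of the combined-overlapping regions (Fisher's exact test, p = 0.00373) and 58.8% of the unpaired ones (p = 0.00157). By the replicate 1 rank of the partner alone, 16 of 20 autosomal outside regions were central at ranks 1 to 2500. At replicate 1 ranks 2501 to 5000 the share was 49.4% (44.0 to 54.8%). With a limit of rank 5000 in both lists, 192 outside regions were left, and 57.7% of the 163 autosomal ones were central. The difference from the combined-overlapping regions was then -0.672 points (Fisher's exact test, p = 0.869), and that from the unpaired replicate 2 regions was -0.296 points (p = 0.935). By the worse of the 2 ranks, the central share was 7 of 7 at ranks 1 to 2500, 55.6% (47.6 to 63.2%) at 2501 to 5000, 43.6% (38.5 to 48.9%) at 5001 to 7500 and 50.4% (45.4 to 55.5%) at 7501 to 10000. Pairs inside the combined list had 58.1%, 60.7%, 59.7% and 57.0% in the same 4 bands. At a worse rank of 5001 to 10000, in a comparison chosen after the data were seen, 47.1% of the outside and 58.4% of the combined-overlapping pairs were central (Fisher's exact test, p = 0.00109). The sets still differed in replicate 1 rank, since 636 outside but 71 combined-overlapping pairs had a replicate 1 rank of 5001 to 10000, and the part of rank in the difference was not tested.

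The central share did not follow the closeness of the partner. It was 51.3% (45.7 to 56.8%) where the centres lay within 50 bp, 42.1% (35.6 to 48.9%) at 50 to 100 bp, 48.2% (41.4 to 55.2%) at 100 to 150 bp and 54.5% (46.9 to 62.0%) at 150 to 200 bp.

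The replicated outside regions lay nearer to combined regions than the unpaired ones did. Their distance to the nearest combined centre ran from 344 bp to 383017 bp with a median of 8638 bp, and the unpaired outside regions had a median of 12324 bp. A combined centre lay within 5 kb of 352 of the 1032 (34.1%, 31.3 to 37.1%) and of 27.3% (26.3 to 28.4%) of the unpaired regions, and 25.7% of all replicate 2 regions outside the combined list had one. The difference of 6.76 points passed (Fisher's exact test, two-sided, p = 9.75e-06, adjusted 1.62e-05). With a rank limit of 5000 the shares were 33.9% of 192 and 29.5%, which did not pass (Fisher's exact test, p = 0.222). For combined-overlapping regions the next other combined centre was a median of 9549 bp away and within 5 kb in 32.3% of cases (30.6 to 34.2%), which is given without a test because overlap with the list chose the sets.

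The shares lay in the same direction on each of the 6 chromosomes, and in the central and the outer autosomes alike. The share within 5 kb was 36.6% (29.4 to 44.5%) of the 153 outside regions on X against 24.2% (22.0 to 26.5%) of the unpaired ones. On chromosome I it was 42.7% against 34.0%, on II 34.7% against 28.5%, on III 37.1% against 35.3%, on IV 26.5% against 23.3% and on V 20.8% against 19.1%. In the central autosomes it was 34.6% against 29.9%, and in the outer autosomes 32.8% against 25.7%. Both replicates were also denser around the paired regions than around the unpaired ones. Between 1 and 10 kb from the centre there were 2.91 ± 2.16 (SD, n = 1032 regions) replicate 1 regions of its best 10000, against 2.24 ± 2.05 (SD, n = 6762 regions) around unpaired ones. For replicate 2 regions of its best 10000 these values were 2.56 ± 1.92 and 2.18 ± 1.78. For combined regions they were 0.795 ± 0.975 and 0.613 ± 0.892. Around the combined-overlapping regions the replicate 1 count was 2.82 ± 2.21 (SD, n = 2601 regions). The rule used the nearness of a replicate 1 region, so the replicate 1 counts are a description. The part of this density in the shorter distance was not tested.

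**Figure D5:**
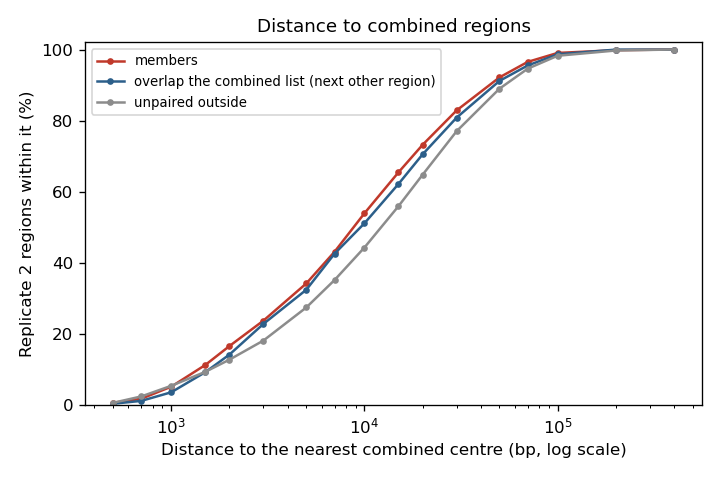
Cumulative percent of replicate 2 regions (y axis) whose nearest combined centre lies within a given distance (x axis, bp, log scale), for the replicated outside regions (red), unpaired outside regions (grey) and combined-overlapping regions to the next other combined region (blue). At 10 kb the values are 53.9%, 44.2% and 51.1%.

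Few of the replicated outside regions lay beside a combined region. A combined centre lay within 600 bp of 9 and within 1000 bp of 52 of the 1032 (5.04%, 3.86 to 6.55%), against 5.28% (4.77 to 5.84%) of the unpaired outside regions. The edge of a combined region was under 100 bp away in 4 cases and under 500 bp away in 39. A combined centre lay within 50 kb of 951 of the 1032, and the remaining regions were more isolated.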

How the data were processed

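CEH-39 binding was mapped by ChIP-seq in embryos, and the lists of 2 ChIP replicates and 1 combined list were used. The authors deposited a score per region without a named unit, used here only to rank regions within a list, with ties broken by the peak number. Per the file headers, positions are on WormBase WS220. SPP and the irreproducible discovery rate are named in each deposited line. Aligner, versions, thresholds, any use of the inputs and the making of the combined list: not given in the sources used here. No genome or annotation of that build was used, so regions are given without genes and without sequence.

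Groups and replicate numbers came from the sample titles. Regions on mitochondrial DNA were left out. The highest region end stood in for chromosome length, which can only understate it, and central means the middle 50%. Where a region had several partners, the nearest by centre was used. Shares carry 95% Wilson intervals, which cover counting error only. Counts of regions were compared with Fisher's exact test (two-sided) at a threshold of 0.05 and adjusted over 5 tests by Benjamini-Hochberg, and the 12 chromosome tests were added after the data were seen. Named regions are the 10 with the best worse rank, the best of each of the 6 chromosomes and those next to the limits of the rule. The regions, the lists and the tests were chosen with earlier results of these data known. Analyses used Python 3.11.15, numpy 2.4.6, pandas 2.3.3, scipy 1.17.1 and matplotlib 3.10.9. The count of paired outside regions was checked against a direct count on simulated autosomal lists, which did not check the tests. Alternatives were other pairing distances, rank limits, comparison sets, chromosome parts, distances and the mirrored rule.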

Additional observations from a re-analysis of the deposited data

How the results depend on the processing

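The number of replicated outside regions depended on the rule that chose them. It was 618 with centres within 100 bp, 1604 with pairing by overlap, 192 with a rank limit of 5000 and 4804 with no rank limit, and it was within 1.5 times 1032 under the other 5 alternatives. The differences in share kept their direction and their side of the threshold under the alternatives not named here. With a rank limit of 5000, 4 differences no longer passed Fisher's exact test: central share against combined-overlapping regions (-0.672 points, p = 0.869) and against unpaired regions (-0.296 points, p = 0.935), X share against unpaired regions (-3.42 points, p = 0.250) and the share within 5 kb of a combined region (4.33 points, p = 0.222). That limit leaves fewer regions, and the cause beyond that was not tested. With centres within 100 bp the X share against unpaired regions was -3.00 points (Fisher's exact test, p = 0.0699). At 1000 bp or more from every combined centre the X share against combined-overlapping regions passed (-2.75 points, Fisher's exact test, p = 0.0478). Taken from the replicate 1 list, the X share (1.75 points) and the central share (7.98 points) against unpaired regions reversed. The cause of the reversal was not tested. The unpaired regions were on X in 13.2% of cases in replicate 1 and in 19.8% in replicate 2. Their autosomal central share was 40.5% in replicate 1 and 57.2% in replicate 2. No paired analysis was possible because only the ChIP libraries have region lists analysed here. The rule needs both replicates, so none could be left out. Read depth is unknown, and with 1 ChIP library per replicate the comparisons cover variation along the genome only.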

Other observations

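Most replicated outside regions had no other member within 5 kb. Another replicate 2 region of any rank had its centre within 5 kb of 92.4% of them, and of 86.1% of the unpaired outside regions. When members within 5 kb of each other by centre were joined, 828 were single, 78 runs held 2 regions, 14 runs held 3 and 1 run held 6. The run of 6 lay on chromosome I at 440224 to 453639 and spanned 13416 bp. Its best rank was 2128 in replicate 2 and 3512 in replicate 1, and 1 combined region lay within 5 kb of it. The same part of chromosome I held the densest window of 100 kb, at 400001 to 500000, with 9 replicated outside regions and 2 combined regions. The next was on chromosome III at 9800001 to 9900000, with 8 and 2. A window on chromosome IV at 5500001 to 5600000 held 6 and no combined region. Of 1005 such windows, 416 held none, 315 held 1 and 37 held 4 or more, and 83 regions lay in windows without a combined region.

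Replicate 2 held further regions close to many of these. Another replicate 2 region of any rank had its centre within 416 bp of 17.6% (95% Wilson interval 15.4 to 20.1%) of the replicated outside regions, 33.6% (31.8 to 35.4%) of the combined-overlapping regions and 13.7% (12.9 to 14.5%) of the unpaired outside regions. The differences between these sets were not tested, because a pair of neighbours can overlap the same combined region.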
